A study of Mus musculus with 4 samples.

Results

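The genes described here are 6 matrix metalloproteinases (MMPs), *Mmp2*, *Mmp3*, *Mmp9*, *Mmp12*, *Mmp14* and *Mmp19*, and the 4 tissue inhibitors of metalloproteinases (TIMPs), *Timp1*, *Timp2*, *Timp3* and *Timp4*. They were chosen by gene name, and all 10 were found among the 33981 genes of the deposited tables. Poly(A) RNA was sequenced from a coronal brain section that included the prefrontal cortex of male C57BL/6J mice aged 3 to 5 months. Normotensive mice (NT) were infused with saline and hypertensive mice (HT) with angiotensin II, the pressor peptide, over 28 days (0.28 mg/kg/day). On day 7 mice of each kind had either sham surgery or a photothrombotic stroke, in which light activates a dye in the cortical vessels and clots them, and tissue was taken 21 days after surgery. The 2 sham groups (NT + Sham, HT + Sham) and the 2 stroke groups (NT + Stroke, HT + Stroke) had 6 numbered libraries each. Each library was treated as 1 mouse. The labels do not state this, so *P* values measure the spread between libraries. The infarct occupies only part of a section, and in such bulk tissue fewer cells of a type and less RNA per cell cannot be told apart.

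MMPs are zinc-dependent endopeptidases that cleave collagens, elastin, basement membrane proteins, growth factors and other proteases. Most are secreted as inactive proenzymes, and their activity is set by removal of the propeptide and by the TIMPs, which block the catalytic site. In brain they are best known after injury, when they can open the basement membrane of the blood-brain barrier and later take part in scar and vessel remodelling. RNA levels, the only quantity measured here, do not report enzyme activity.

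The promoter windows of the 3 genes with the largest changes after stroke in NT mice are shown because a shared activating factor for MMP genes, AP-1, is known from textbook work on *Mmp3* family promoters. Each window holds 250 bases before and 50 bases after the transcription start given by RefSeq for GRCm38.p6, on the plus strand, written 5′ to 3′. Capitals mark the AP-1 motif TGAGTCA, the TATA motif TATAAA and the GC box GGGCGG, each searched on both strands. *Mmp3* lies at chr9:7445572-7445871, the second of the *Mmp12* starts at chr9:7347124-7347423 and *Timp1* at chrX:20869916-20870215.
Mmp3: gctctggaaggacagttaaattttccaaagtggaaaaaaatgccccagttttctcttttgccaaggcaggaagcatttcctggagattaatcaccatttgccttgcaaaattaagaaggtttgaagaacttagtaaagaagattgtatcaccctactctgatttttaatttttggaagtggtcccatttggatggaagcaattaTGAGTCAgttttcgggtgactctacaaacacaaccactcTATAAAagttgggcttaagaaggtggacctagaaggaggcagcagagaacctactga
Mmp12: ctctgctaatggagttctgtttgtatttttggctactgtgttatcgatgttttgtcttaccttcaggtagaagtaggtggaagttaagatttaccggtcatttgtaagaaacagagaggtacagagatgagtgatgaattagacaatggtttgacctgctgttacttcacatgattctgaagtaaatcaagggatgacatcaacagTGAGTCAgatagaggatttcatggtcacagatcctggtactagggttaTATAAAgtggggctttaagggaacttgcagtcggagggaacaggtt
Timp1: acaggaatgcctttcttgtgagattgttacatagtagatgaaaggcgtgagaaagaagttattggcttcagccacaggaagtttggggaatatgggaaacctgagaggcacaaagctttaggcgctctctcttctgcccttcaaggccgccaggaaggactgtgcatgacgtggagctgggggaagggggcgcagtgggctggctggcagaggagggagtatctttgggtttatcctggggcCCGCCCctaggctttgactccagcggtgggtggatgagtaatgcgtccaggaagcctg
The AP-1 motif was found in *Mmp3* at bases 205 to 211 of the window and in *Mmp12* at bases 207 to 213. Both windows also held the TATA motif, at bases 244 to 249 in *Mmp3*, just before the given start, and at 255 to 260 in *Mmp12*, after it. The *Timp1* window held neither in these exact letters, but had 1 GC box in its reverse form, CCGCCC. Variants of the motifs that differ by a letter were not searched, so a window without a match may still hold such a site. Of 32851 promoter windows of all genes, 5.20% held the AP-1 motif, 13.6% the TATA motif and 35.7% the GC box. RefSeq windows were at hand for 7 of the 10 genes, and the windows of *Mmp14*, *Timp2*, *Timp3*, *Timp4* and the first *Mmp12* start had no AP-1 and no TATA match. A match is only a run of letters and does not show that a factor was bound.

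Several libraries stood apart from their group. For some values that changed markedly without such a library, the value without it is also given. Mouse 6 of HT + Sham had 66 counts of *Mmp12*, where the other 5 mice had 0 to 2. In HT + Stroke, mice 1 and 6 were near the sham level of most genes described here, mouse 5 was intermediate, and mice 2, 3 and 4 were high. In NT + Stroke, mouse 4 was the lowest for *Mmp3* and *Mmp12*. The same libraries stood apart in the 8 markers of phagocytic microglia and macrophages (*Lgals3*, *Gpnmb*, *Spp1*, *Lpl*, *Cst7*, *Itgax*, *Cd68* and *Clec7a*). Their summed level was 39.2 to 48.1 CPM (counts scaled to library size) in NT + Sham and 200.1 to 797 CPM in NT + Stroke, where the lowest value was that of mouse 4. It was 203 CPM in mouse 6 of HT + Sham against 39.5 to 51.3 CPM in the other mice of that group, and 72.2, 235 and 74.1 CPM in mice 1, 5 and 6 of HT + Stroke against 551 to 852 CPM in mice 2, 3 and 4. The part of these cells in the results was not tested.

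Total counts per library were 15922919 to 24865998. Cortical neuron markers, summed, were 5348 to 7922 CPM over all libraries, while striatal markers ranged from 308 to 2401 CPM and olfactory bulb markers from 38.5 to 521 CPM. The median bulb sum was 122 CPM in NT + Sham and 262 CPM in HT + Sham. After stroke it was 259 CPM in NT mice and 110 CPM in HT mice, and group ranges overlapped. Mouse 6 of HT + Sham had the highest bulb sum, with 314 CPM of striatal markers. Mice 1 and 6 of HT + Stroke had 1979 and 1965 CPM of striatal and 40.5 and 69.0 CPM of bulb markers. Mouse 2, one of the high mice of that group, had 2401 and 38.5 CPM. The part of these regions in the results was not tested.

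Levels of different genes were compared in FPKM, the authors' fragment counts scaled by gene length and library size. In NT + Sham, *Timp2*, which inhibits MMPs and also takes part in the activation of MMP-2, had by far the highest level, with a median of 65.7 FPKM and a range of 63.1 to 72.2. *Timp4* followed at 4.53 FPKM and *Mmp14* at 2.23 FPKM, and the ranges of these genes did not overlap with their neighbours above. The order then ran through *Timp3*, *Mmp2*, *Timp1*, *Mmp9* and *Mmp19* to *Mmp3* (0.0138 FPKM) and *Mmp12* (0.0040 FPKM), and every pair of neighbours from *Mmp14* down had overlapping ranges. In NT + Stroke, *Timp2* was again first at 84.1 FPKM (77.8 to 91.5). *Timp1* was then second at 7.28 FPKM and *Mmp3* followed at 6.25 FPKM, although the ranges of *Timp1*, *Mmp3*, *Mmp14*, *Timp4*, *Mmp2* and *Mmp12* each overlapped with the next. The lowest median after stroke was that of *Mmp9*, 0.563 FPKM. The order in HT + Sham was that of NT + Sham, from *Timp2* at 71.9 FPKM to *Mmp12* at 0.0125 FPKM. In HT + Stroke *Timp2* (80.1 FPKM), *Timp1* (6.16 FPKM) and *Mmp14* (5.85 FPKM) came first and *Mmp19* (0.501 FPKM) last, and from *Timp1* down every range overlapped with the next.

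**Figure D1:**
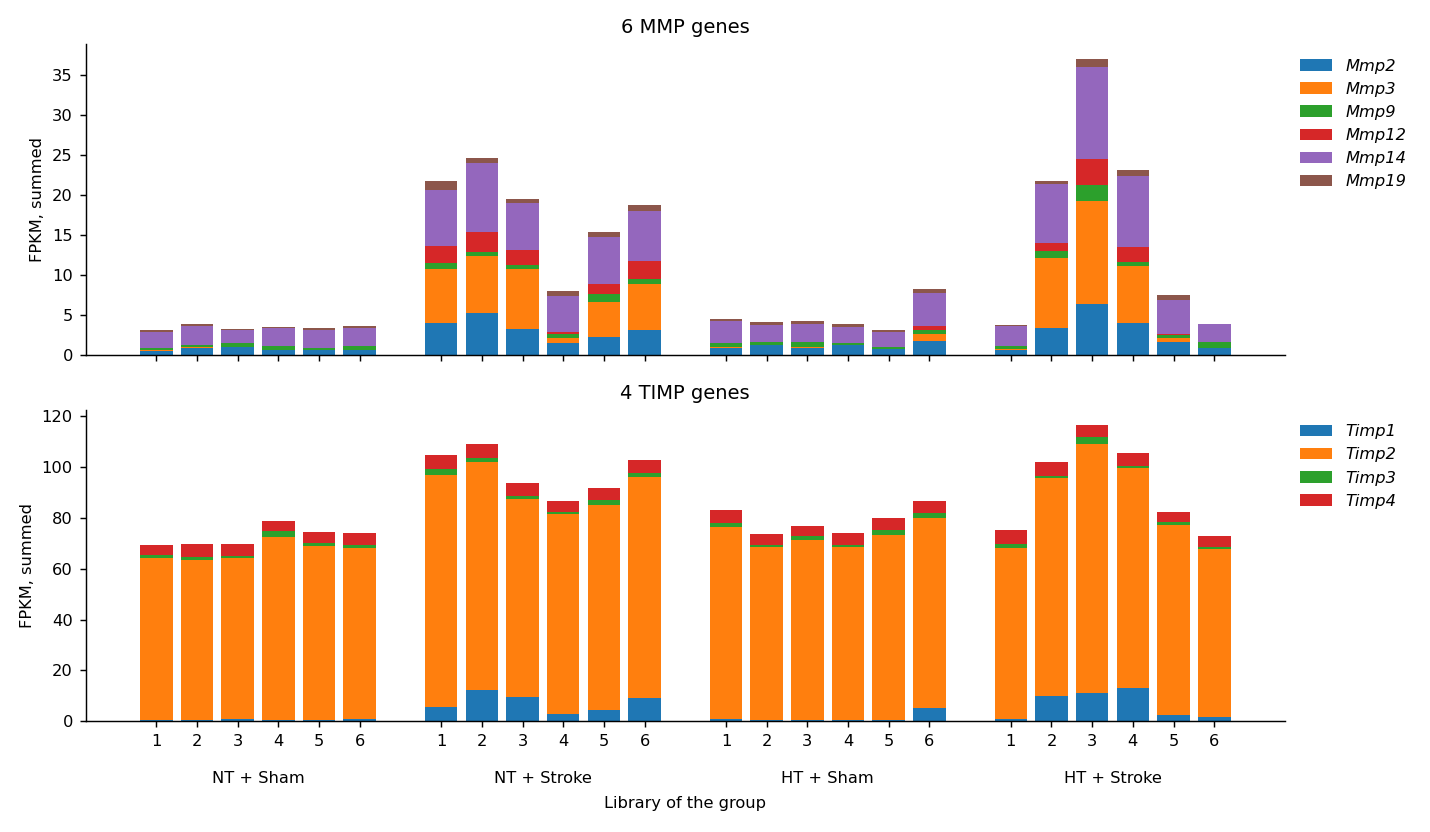
Stacked bars show the deposited FPKM of the 6 MMP genes (top) and the 4 TIMP genes (bottom) in each of 24 libraries, which are numbered 1 to 6 within each group on the horizontal axis. MMP sums were 3.13 to 3.88 in NT + Sham and 8.06 to 24.7 in NT + Stroke, and *Timp2* made up most of every TIMP bar.

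Summed over the 6 genes, MMP transcripts had a median of 3.46 FPKM in NT + Sham, 19.1 in NT + Stroke, 4.19 in HT + Sham and 14.7 in HT + Stroke. The HT + Stroke libraries spanned 3.79 to 37.1 FPKM, from the sham level to above every NT + Stroke library. The TIMP sum moved less, from a median of 72.0 FPKM in NT + Sham to 98.3 in NT + Stroke. The ratio of the MMP sum to the TIMP sum was 0.0451 to 0.0555 in NT + Sham and 0.0931 to 0.226 in NT + Stroke, and 0.0505 to 0.317 in HT + Stroke. *Timp2* held a median of 91.3% of the TIMP sum in NT + Sham and 86.0% in NT + Stroke, and *Timp1* 0.704% and 7.02%. *Mmp14* was 63.4% of the sum of the 6 MMP genes in NT + Sham and 34.1% in NT + Stroke, where *Mmp3* was similarly abundant. These sums were not tested, and the ratio depends on which MMP genes enter it. In an alternative chosen after seeing the data, 13 other MMP genes were added. *Mmp17* alone had a median of 47.2 FPKM in NT + Stroke and 59.3 FPKM in NT + Sham. The enlarged MMP sum had medians of 83.4 FPKM in NT + Stroke and 79.0 FPKM in NT + Sham, so it rose less than the TIMP sum. The ratio with these genes was lower in NT + Stroke (0.776 to 0.916) than in NT + Sham (1.01 to 1.22). In HT + Stroke that ratio was 0.873 to 1.13, overlapping with 0.834 to 1.28 in HT + Sham.

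To examine the effect of stroke without hypertension, NT + Stroke was compared with NT + Sham by edgeR's quasi-likelihood test, and *P* values were adjusted over all tested genes (Benjamini-Hochberg). All 6 MMP genes, *Timp1* and *Timp2* were upregulated (8 of 10 genes, adjusted *P* under 0.05), and none was downregulated. Among all 16835 genes tested 25.9% passed and 14.4% were upregulated. The largest changes were those of *Mmp12* and *Mmp3*, which were almost undetected in sham mice, followed by *Timp1*. *Timp3* and *Timp4* did not pass the test. In CPM, the groups did not overlap for 7 of the 10 genes, against 13.5% of all genes. The filter on low counts asks for 6 libraries above 0.528 CPM, and *Mmp3*, *Mmp12*, *Timp1* and *Mmp19* passed it only through NT + Stroke, with 0, 0, 2 and 5 of the 6 NT + Sham libraries above that level. These genes could be tested in this comparison only because NT + Stroke was high, so their calls and lack of overlap are given as a description. The median log2 fold change was 1.62 over the 10 genes and −0.01 over all genes. The first median includes *Mmp3*, *Mmp12*, *Timp1* and *Mmp19*, so it too is only a description. The other 6 genes had 0.11 (*Timp4*) to 2.07 (*Mmp2*).

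**Figure D2:**
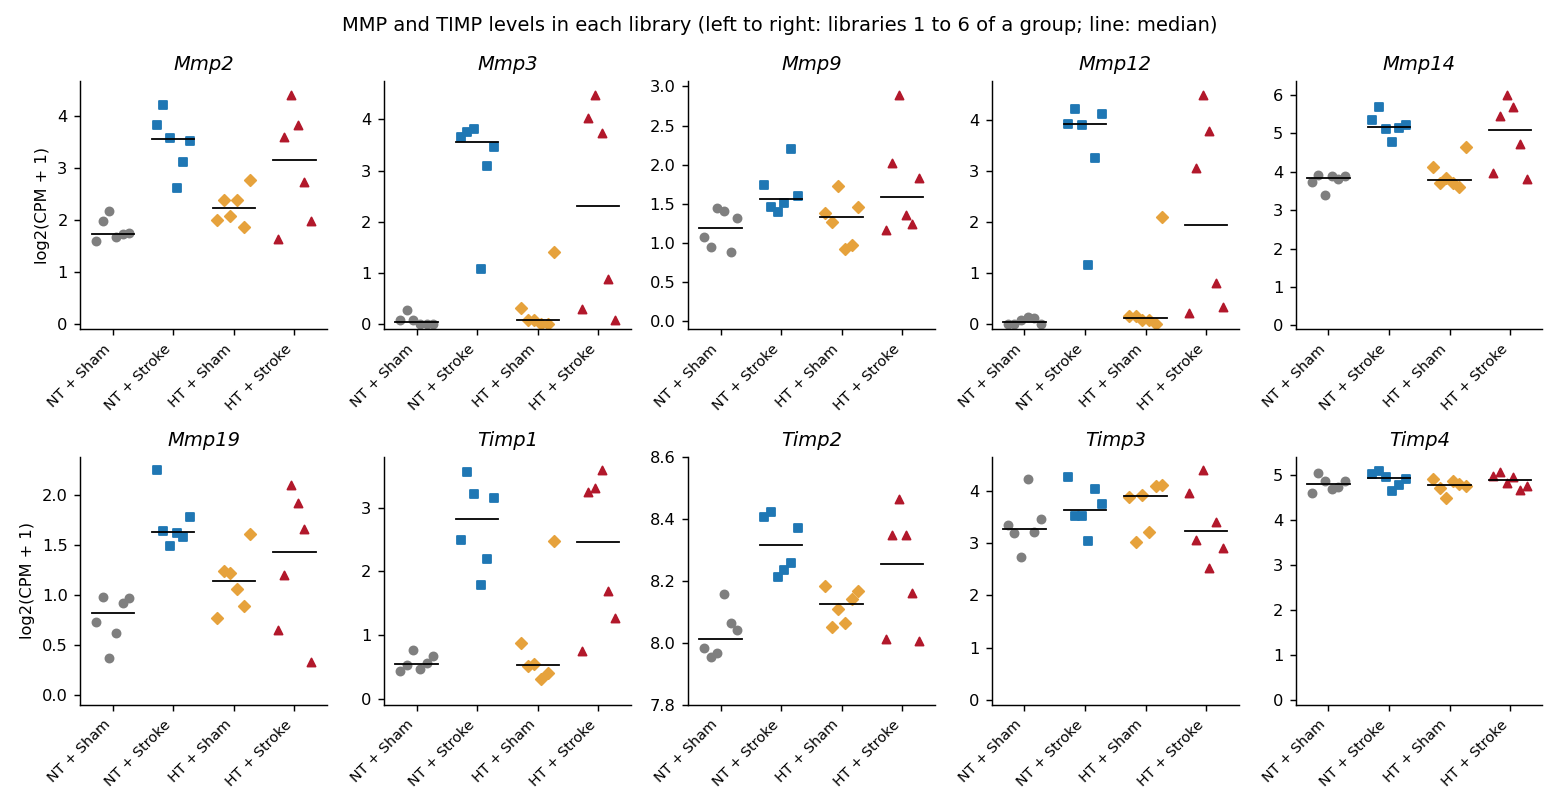
Each panel shows 1 gene, with log2(CPM + 1) on the vertical axis and 6 libraries of each group from left to right in the order 1 to 6. Lines are group medians, and the *Timp2* panel alone does not start at 0. All NT + Stroke libraries lie above all NT + Sham libraries for *Mmp2*, *Mmp3*, *Mmp12*, *Mmp14*, *Mmp19*, *Timp1* and *Timp2*, whereas HT + Stroke libraries spread from the sham level upwards.

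*Mmp2* (ENSMUSG00000031740, chr8:92827291-92853420) encodes gelatinase A, which degrades type IV collagen of basement membranes. It had 40 to 61 counts per mouse in NT + Sham (median 46.5) and 128 to 280 in NT + Stroke (median 225). Its level was 2.55 ± 0.568 CPM (SD, n = 6) in NT + Sham and 10.8 ± 4.28 CPM in NT + Stroke, an estimated log2 fold change of 2.07 (SE 0.255, adjusted *P* = 2.86e-05). All 6 stroke mice were above all sham mice. *Mmp9* (ENSMUSG00000017737, chr2:164940780-164955850) encodes gelatinase B, the MMP most often linked to early barrier breakdown and carried by neutrophils. It was only 1.29 ± 0.386 CPM in NT + Sham and 2.20 ± 0.726 CPM in NT + Stroke (estimated log2 fold change 0.78, SE 0.244, adjusted *P* = 0.0249). The groups overlapped, with 5 of 6 stroke mice above all sham mice. Mouse 5 of NT + Stroke had the highest value, 3.59 CPM. That library also had the highest sum of 6 neutrophil markers, 41.6 CPM against 2.65 to 17.4 CPM in the other mice of the group. The same library had the highest sum of 6 blood markers of its group, 174 CPM against 39.9 to 96.0 CPM in the other mice. Mouse 3 of HT + Stroke had the highest *Mmp9* level of all libraries, 6.44 CPM. Its neutrophil sum, 14.4 CPM, was the highest of its group, and its blood sum, 58.6 CPM, the lowest. The part of neutrophils or of blood in the *Mmp9* level was not tested. The *Mmp9* call did not hold without mouse 1, 2 or 5 of NT + Sham (adjusted *P* = 0.0510, 0.0517 and 0.0546) or without mouse 5 of NT + Stroke (log2 fold change 0.58, adjusted *P* = 0.0775).

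*Mmp3* (ENSMUSG00000043613, chr9:7445822-7455975) encodes stromelysin, which cleaves proteoglycans and laminin and can activate other MMP proenzymes. It had 28 to 256 counts per mouse in NT + Stroke (median 211) and 0 to 4 in NT + Sham (median 0.5). Over the groups, 1095 against 6 counts gave a ratio of 168 after scaling for library size (95% exact counting interval 77.1 to 460). *Mmp12* (ENSMUSG00000049723, chr9:7344381-7369499) encodes the macrophage metalloelastase. It had 31 to 416 counts in NT + Stroke (median 263.5) and 0 to 2 in NT + Sham (median 0.5), 1429 against 5 counts and a ratio of 264 (113 to 813). The intervals cover counting error only. The fitted log2 fold changes, which rest on these few sham counts, were 7.30 for *Mmp3* (SE 0.824, adjusted *P* = 5.78e-05) and 7.90 for *Mmp12* (SE 0.897, adjusted *P* = 7.42e-05). For both genes all stroke mice were above all sham mice, and the lowest was mouse 4, with 28 and 31 counts where the other 5 mice had at least 150 and 171. The exons of *Mmp12* share 2.17% of their bases with *Mmp1b* on the opposite strand.

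*Mmp14* (ENSMUSG00000000957, chr14:54431612-54445364) encodes a membrane-anchored MMP that, together with TIMP-2, activates the MMP-2 proenzyme on the cell surface. It had 166 to 277 counts in NT + Sham (median 258) and 614 to 915 in NT + Stroke (median 721), with no overlap. The level rose from 12.8 ± 1.70 to 36.7 ± 7.99 CPM (estimated log2 fold change 1.53, SE 0.131, adjusted *P* = 7.29e-07), the smallest adjusted *P* of the 10 genes. *Mmp19* (ENSMUSG00000025355, chr10:128790910-128800824) encodes an MMP of basement membrane and tenascin substrates. It had 5 to 19 counts in NT + Sham (median 15.5) and 33 to 72 in NT + Stroke (median 46), again without overlap. Its level was 0.718 ± 0.275 and 2.37 ± 0.714 CPM (estimated log2 fold change 1.71, SE 0.268, adjusted *P* = 0.000118). *Mmp19* exons overlap *Tmem198b* over 22.3% of their bases and the antisense gene *Gm47093* over 6%. Whether the authors counted by strand is not given in the sources used here, so reads from these genes cannot be told apart there.

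*Timp1* (ENSMUSG00000001131, chrX:20870166-20874735) encodes the inducible, secreted inhibitor that binds MMP-9. It had 7 to 12 counts in NT + Sham (median 9) and 61 to 200 in NT + Stroke (median 119.5), with all stroke mice above all sham mice. Its level was 0.485 ± 0.131 CPM in NT + Sham and 6.26 ± 3.20 CPM in NT + Stroke (estimated log2 fold change 3.67, SE 0.374, adjusted *P* = 4.68e-06). *Timp2* (ENSMUSG00000017466, chr11:118301069-118355740) had 4313 to 5703 counts (median 4958.5) and 5401 to 8398 (median 6296). In CPM it was 260.4 ± 14.2 in NT + Sham and 319 ± 20.6 in NT + Stroke, a small change (log2 fold change 0.30, SE 0.0571, adjusted *P* = 0.000786) that nevertheless separated all mice of the groups. *Timp3* (ENSMUSG00000020044, chr10:86300372-86349506) encodes the inhibitor that is bound to the extracellular matrix and also inhibits ADAM proteases. It had 98 to 329 counts in NT + Sham (median 178.5) and 169 to 351 in NT + Stroke (median 249.5), and the groups overlapped. The log2 fold change was 0.34 (95% confidence interval −0.25 to 0.93, adjusted *P* = 0.407). *Timp3* depended on single libraries, with 0.60 (adjusted *P* = 0.0550) without mouse 4 of NT + Sham, the highest of its group, and 0.21 without mouse 1 of NT + Stroke. *Timp4* (ENSMUSG00000030317, chr6:115241892-115252205), an inhibitor with high levels in brain and heart, had 460 to 580 counts (median 506.5) and 529 to 734 counts (median 569). In CPM its groups overlapped, and the log2 fold change was 0.11 (95% confidence interval −0.08 to 0.29, adjusted *P* = 0.405).

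3 of the TIMP genes lie inside synapsin genes, which code for synaptic vesicle proteins, on the opposite strand. *Syn1*, around *Timp1*, *Syn2*, around *Timp4*, and *Syn3*, around *Timp3*, were each downregulated in NT + Stroke, by log2 fold changes of −0.31 (SE 0.0542, adjusted *P* = 0.000356), −0.37 (SE 0.0582, adjusted *P* = 0.000116) and −0.40 (SE 0.130, adjusted *P* = 0.0284). None of them passed the test in the other comparisons. In GENCODE M21, *Timp1* shares 0 exon bases with *Syn1*. *Timp4* shares 1.53% of its exon bases with *Syn2*, and *Timp3* shares 21.3% with *Syn3*. *Timp3* (9.81 CPM in NT + Sham) and *Syn3* (4.95 CPM) were of similar level, so the *Timp3* values are uncertain if strand was not used.

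**Figure D3:**
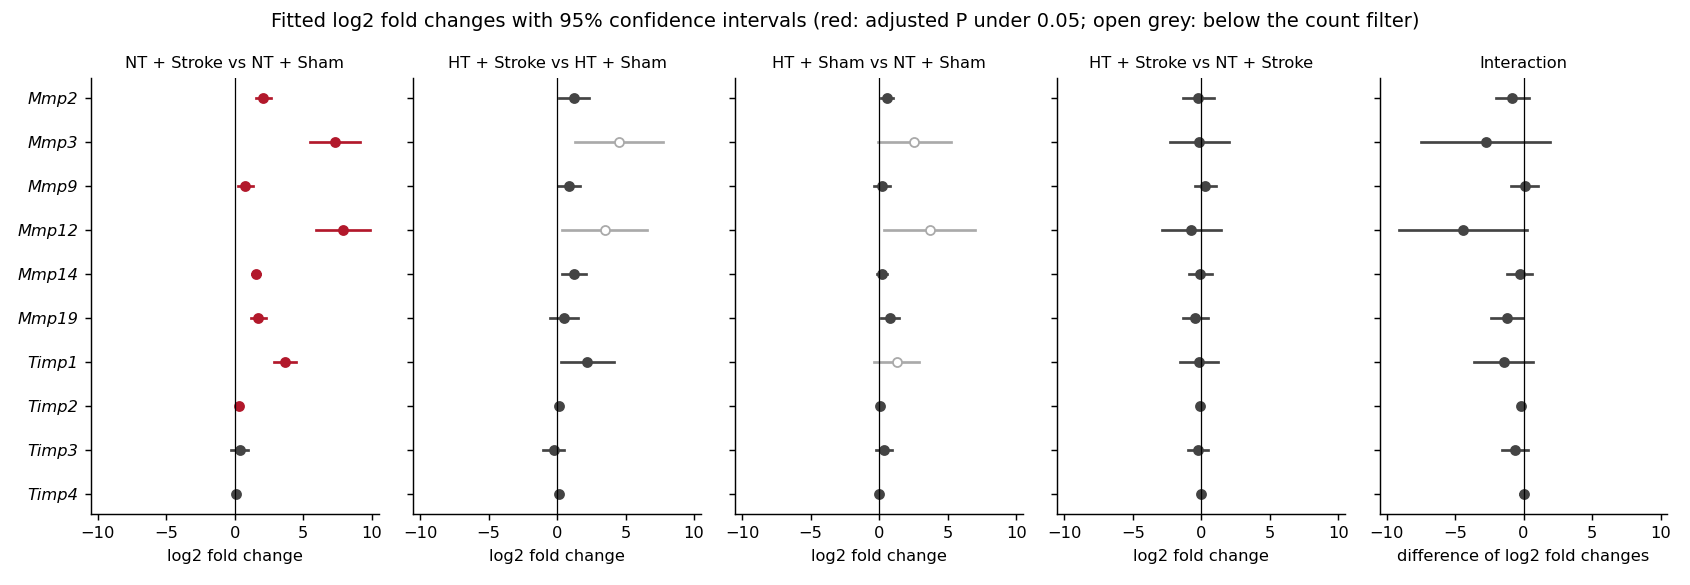
Points are fitted log2 fold changes of each gene (horizontal axis; vertical axis, genes) with 95% confidence intervals, in 4 comparisons and the interaction. Red marks an adjusted *P* under 0.05 and open grey points are genes that did not pass the count filter, taken from a fit of all genes. Red points occur in NT + Stroke vs NT + Sham, from 0.30 for *Timp2* to 7.90 for *Mmp12*, and in no other panel.

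The other genes of the pathway were taken from lists. Of 17 other MMP genes 7 could be tested in NT + Stroke vs NT + Sham, of which 3 were upregulated and 1 was downregulated, with a median log2 fold change of 0.25. *Mmp11* rose by 0.81 (SE 0.147, adjusted *P* = 0.000462), *Mmp23* by 0.75 (SE 0.212, adjusted *P* = 0.0140) and *Mmp15*, a membrane-type MMP, by 0.25 (SE 0.0684, adjusted *P* = 0.0103). *Mmp17*, a lipid-anchored MMP, fell from 399.5 ± 20.6 to 288 ± 37.9 CPM (estimated log2 fold change −0.47, SE 0.0772, adjusted *P* = 0.000203). At a median of 59.3 FPKM in NT + Sham, *Mmp17* was more abundant per length than any of the 6 MMP genes described above.

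Of 24 MMP activators and regulators 18 were tested, 13 rose and 1 fell, with a median log2 fold change of 0.78. The largest rises were those of the general protease inhibitor *A2m* (3.87, SE 0.227, adjusted *P* = 7.83e-08), the hyaluronan receptor *Cd44* (2.32, SE 0.182, adjusted *P* = 1.32e-07), the matrix glycoprotein *Thbs1* (2.16, SE 0.299, adjusted *P* = 8.73e-05) and the heparan sulfate proteoglycan *Sdc1* (1.45, SE 0.180, adjusted *P* = 1.18e-05). Of the 16 ADAM and ADAMTS proteases, relatives of the MMPs that shed membrane proteins or cut proteoglycans, 15 were tested, 9 rose and 0 fell, with a median of 0.42. The largest changes were *Adam8* (1.22, SE 0.222, adjusted *P* = 0.000806), *Adamts9* (1.18, SE 0.256, adjusted *P* = 0.00214), *Adam12* (1.14, SE 0.149, adjusted *P* = 2.06e-05) and *Adamts5* (0.83, SE 0.180, adjusted *P* = 0.00215). In the other 3 comparisons and in the interaction, no gene of these lists passed the test.

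To examine stroke under hypertension, HT + Stroke was compared with HT + Sham. None of the 10 genes passed edgeR's test, where 0.645% of 16741 genes passed and 0.544% were upregulated, and 4 of the 8 genes that could be tested had an unadjusted *P* under 0.05, as did 2842 of all genes. 7 of these 8 genes had a log2 fold change above 0. With DESeq2, and in a fit of all 4 groups that shares their spread, *Mmp14* and *Mmp3* passed. *Mmp3* entered the fit of all 4 groups only through NT + Stroke. *Mmp14* had 197 to 477 counts in HT + Sham (median 217.5) and 204 to 1400 in HT + Stroke (median 628.5). Mice 2 to 5 of HT + Stroke were above all HT + Sham mice, while mice 1 and 6 lay within the sham range. The log2 fold change was 1.25 (SE 0.406, adjusted *P* = 0.152), with an adjusted *P* of 0.0477 by DESeq2 and 0.0232 in the fit of all 4 groups. *Timp1* had 4 to 91 counts in HT + Sham (median 7.5) and 12 to 205 in HT + Stroke (median 96.5), a log2 fold change of 2.22 (SE 0.875, adjusted *P* = 0.229). Without mouse 6 of HT + Sham, which held 70.0% of the *Timp1* counts of its group, the log2 fold change was 3.58 (SE 0.789, adjusted *P* = 0.0611).

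*Mmp3* and *Mmp12* had too few counts in enough libraries to be tested in this comparison. Counts in HT + Stroke mice were 1 to 474 for *Mmp3* (median 123.5) and 3 to 478 for *Mmp12* (median 72.5). Mice 2, 3 and 4 had 130 to 478 counts of *Mmp12*, and mice 1, 5 and 6 had 3, 15 and 4. Mouse 3 alone held 55.0% of the *Mmp12* counts and 47.6% of the *Mmp3* counts of the group. With all genes fitted, the log2 fold change of *Mmp3* was 4.53 (SE 1.44, edgeR adjusted *P* = 0.240). That of *Mmp12* was 3.47 (SE 1.40, edgeR adjusted *P* = 0.351). On the sham side, 33 of 39 *Mmp3* counts and 66 of 72 *Mmp12* counts came from a single HT + Sham library, number 6. In the fit of all 4 groups *Mmp3* had an adjusted *P* of 0.0207 (0.0393 by DESeq2) and *Mmp12* of 0.0552. Both genes entered that fit only through NT + Stroke, where 6 libraries were above the filter level, against 4 in HT + Stroke and 1 in HT + Sham. The fit also uses the spread of NT + Stroke, so its adjusted *P* values are given as a description. *Mmp2* ranged from 37 to 446 counts (median 153) in HT + Stroke and from 49 to 115 (median 61.5) in HT + Sham, with a log2 fold change of 1.27 (SE 0.500, adjusted *P* = 0.225). *Mmp9* had 0.88 (SE 0.390, adjusted *P* = 0.271) and was highest in mouse 3, at 143 counts against 22 to 54 in the others. Without that mouse it had 0.39. *Mmp19* had 0.51 (SE 0.463), *Timp2* 0.13 (SE 0.0862), *Timp4* 0.13 (SE 0.0910) and *Timp3* −0.25 (SE 0.346). Without mouse 3 of HT + Stroke, *Mmp19* had 0.22, *Timp2* 0.07 and *Timp3* −0.55, and without mouse 4 *Timp3* had −0.11. With 1 library left out, *Mmp2* ranged from 0.87 to 1.47 and *Mmp14* from 0.99 to 1.44.

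The spread between HT + Stroke mice was wide for most of the genes that had risen in NT + Stroke. The SD of log2(CPM + 1) over the 6 mice was 2.03 for *Mmp3*, 1.89 for *Mmp12*, 1.22 for *Timp1*, 1.09 for *Mmp2* and 0.92 for *Mmp14* in HT + Stroke, and 1.04, 1.16, 0.68, 0.55 and 0.30 in NT + Stroke. The median SD over all genes was 0.19 and 0.15. *Timp2*, which had also risen, had only 0.19 in HT + Stroke and 0.09 in NT + Stroke. *Timp3*, which had not passed the test, had 0.70 and 0.43. *Timp4* showed no such widening, at 0.15 in HT + Stroke and 0.17 in NT + Stroke. The difference in spread was not tested.

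To examine hypertension alone, HT + Sham was compared with NT + Sham. None of the 10 genes passed the test, and neither did any other gene (0% of 16581). 7 of the 10 genes could be tested, and 2 of them, like 1332 of all genes, had an unadjusted *P* under 0.05 by edgeR. DESeq2 also called 0 of the 10 and 0 of all genes. *Mmp2* was 3.83 ± 1.15 CPM in HT + Sham against 2.55 ± 0.568 CPM in NT + Sham (estimated log2 fold change 0.59, SE 0.204, adjusted *P* = 0.469). All 6 mice of HT + Sham exceeded the median of NT + Sham, but only 3 exceeded all NT + Sham mice. How many of all genes do so was not examined. *Mmp19* had 0.77 (SE 0.312, adjusted *P* = 0.535). The values without mouse 6 of HT + Sham were 0.43 and 0.56. *Mmp12*, *Mmp3* and *Timp1* were below the filter, and mouse 6 held 91.7% of the 72 *Mmp12* counts of HT + Sham. The other log2 fold changes lay between −0.05 (*Timp4*) and 0.37 (*Timp3*). *Mmp14* had 0.22, and 0.024 to 0.29 with 1 library left out, the lowest without mouse 6 of HT + Sham. Without mouse 4 of NT + Sham, *Timp3* had 0.61.

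To examine hypertension among mice with stroke, HT + Stroke was compared with NT + Stroke, in which all 10 genes were tested and 0 passed (0% of 17008 genes, with 1230 at an unadjusted *P* under 0.05). At an unadjusted *P* under 0.05 there was none of the 10 genes, and DESeq2 called 0 of the 10 and 0 of all genes. For *Mmp14* the log2 fold change was −0.07 (95% confidence interval −0.90 to 0.76), for *Timp1* −0.19 (−1.58 to 1.20), for *Mmp3* −0.14 (−2.32 to 2.04) and for *Mmp12* −0.73 (−2.87 to 1.41). These intervals are wide, so sizeable differences in either direction were not detectable. Without mouse 3 of HT + Stroke, *Mmp12* had −1.47 and *Mmp2*, at −0.22 with all mice, had −0.62. The intervals of *Timp2* (−0.27 to 0.09) and *Timp4* (−0.22 to 0.16) were narrow. Mouse 3 of HT + Stroke had the highest *Mmp2*, *Mmp3*, *Mmp9*, *Mmp12*, *Mmp14*, *Timp2* and *Timp3* level of all 12 stroke mice, while mice 1 and 6 were below all NT + Stroke mice for *Mmp2*, *Mmp3*, *Mmp12*, *Mmp14*, *Mmp19*, *Timp1* and *Timp2*.

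Whether the effect of stroke differed with hypertension was tested as the interaction over all 24 libraries. 0 of the 10 genes passed (0% of 17608 genes, with 1836 at an unadjusted *P* under 0.05), and DESeq2 called 0 of the 10 genes and 22 of all genes. 8 of the 10 estimates were below 0, and 1 had an unadjusted *P* under 0.05. This was *Mmp19*, with a difference of log2 fold changes of −1.20 (SE 0.561, adjusted *P* = 0.463). *Mmp12* had −4.44 (SE 2.24, adjusted *P* = 0.499) and *Timp1* −1.46 (SE 1.02, adjusted *P* = 0.628). Without mouse 6 of HT + Sham these values were −1.34 and −0.10, and that of *Mmp3* moved from −2.77 to −0.51. *Mmp19* then had −0.99, with an unadjusted *P* of 0.0944 by edgeR.

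Whether the genes varied together from mouse to mouse was examined over the 12 stroke libraries by Pearson's *r* and Spearman's rho of log2(CPM + 1), with permutation tests adjusted over 45 pairs. By Pearson's *r*, 20 pairs passed, and by Spearman's rho 18. How many pairs of other genes would pass was not examined, so these counts and those within groups only describe the 10 genes. All 20 lay among *Mmp2*, *Mmp3*, *Mmp12*, *Mmp14*, *Mmp19*, *Timp1* and *Timp2*, while *Mmp9*, *Timp3* and *Timp4* passed with no other gene. *Mmp2* and *Mmp14* had *r* = 0.97 and rho = 0.93 (permutation adjusted *P* = 0.00135 for rho), and *r* = 0.94 without the 2 libraries farthest from the median of *Mmp2*. Within groups this pair had *r* = 0.94 in NT + Stroke (exact permutation adjusted *P* = 0.0781) and 0.99 in HT + Stroke (exact permutation adjusted *P* = 0.0375). *Mmp3* and *Mmp12*, neighbours on chromosome 9, had *r* = 0.97 and rho = 0.76 (permutation adjusted *P* = 0.000169 and 0.0195). In NT + Stroke their *r* of 0.98 rested on few libraries, since rho was 0.60 and *r* was −0.24 without the 2 libraries farthest from the *Mmp3* median. In HT + Stroke they had *r* = 0.98 and rho = 0.89, and *r* = 0.97 without 2 libraries. The *Mmp19* pairs that passed by *r* all fell without the 2 libraries farthest from the median of 1 gene of the pair. With *Mmp3*, *r* fell from 0.69 to 0.18, with *Mmp2* from 0.79 to 0.40 and with *Mmp12* from 0.73 to 0.34. With *Mmp14* it fell from 0.82 to 0.36 and with *Timp2* from 0.84 to 0.50. Within NT + Stroke 0 of 45 pairs passed (smallest exact permutation adjusted *P* = 0.0625) and within HT + Stroke 10 did (smallest exact permutation adjusted *P* = 0.0375), all among *Mmp2*, *Mmp3*, *Mmp12*, *Mmp14*, *Timp1* and *Timp2*.

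**Figure D4:**
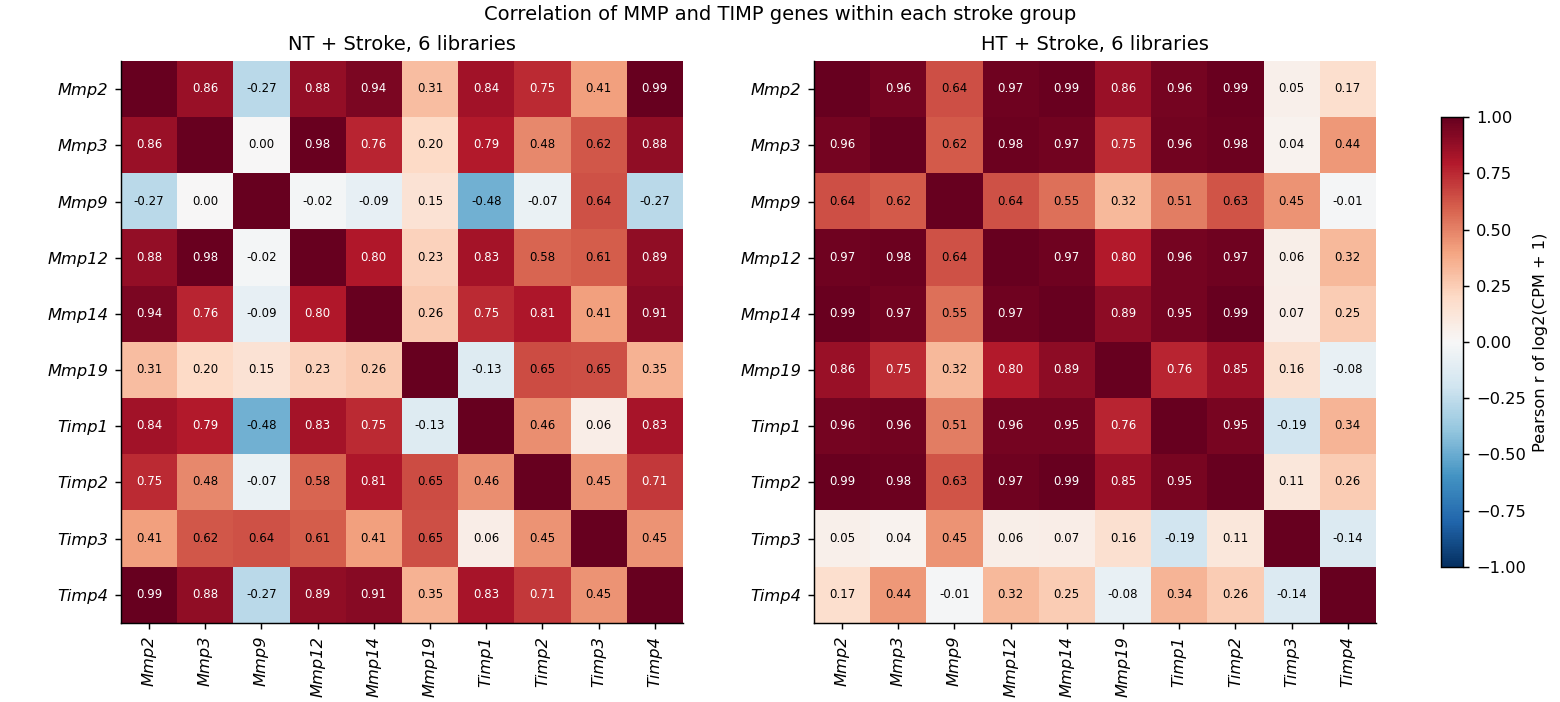
Pearson's *r* of log2(CPM + 1) between each pair of the 10 genes over the 6 libraries of NT + Stroke (left) and of HT + Stroke (right), from blue (negative) to red (positive). *Mmp2*, *Mmp3*, *Mmp12*, *Mmp14*, *Timp1* and *Timp2* form a red block in HT + Stroke, and *Timp4* with *Mmp2* has *r* = 0.99 in NT + Stroke and 0.17 in HT + Stroke, or 0.78 there without the 2 libraries farthest from the *Mmp2* median.

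The genes whose levels most resembled each member over the 12 stroke libraries were sought among 15594 genes, as a description without a test. Depth and the amount of injured tissue are shared by all genes of a library. The nearest genes of *Mmp2* were the collagen gene *Col1a2* (*r* = 0.99), the lysosomal protease *Ctsl* (0.99) and the proteoglycan *Lum* (0.99). For *Mmp3* they were *Sfrp4*, a secreted Wnt inhibitor (0.98), the proton pump subunit *Atp6v0d2* (0.98) and the collagen gene *Col3a1* (0.98). For *Mmp12* they were *Atp6v0d2* (0.99), the lysosomal glycoprotein *Creg1* (0.99) and the macrophage protein *Cd5l* (0.98). *Mmp14* was nearest to *Ms4a7*, a macrophage marker (0.99), *Tmem106a* (0.98) and the chemokine *Cxcl16* (0.98). *Timp1* was nearest to *Gpsm3* (0.98), *Apoc1* (0.98) and the actin-capping protein *Capg* (0.97). *Timp2* was nearest to the myosin *Myo1g* (0.98), *Iqgap1* (0.98) and the proteoglycan *Bgn* (0.97). *Mmp19* was nearest to *Hadh*, *Rsu1* and *Ltbp3* (each 0.96) and *Mmp9* to *Gm10052*, *Hcfc1* and *Abcc1* (0.91, 0.89 and 0.89). *Timp3* was nearest to *2900072N19Rik*, *Ncoa4* and *Zfyve26* (0.98, 0.95 and 0.95) and *Timp4* to *Gm17530*, *Stra6* and *Pkp2* (0.85, 0.84 and 0.82).

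Cell type markers were examined beside the MMP genes. In NT + Stroke vs NT + Sham, 8 of 8 markers of phagocytic microglia and macrophages and 6 of 7 markers of meningeal and perivascular fibroblasts were upregulated. The fibroblast markers summed to 98.7 to 118 CPM in NT + Sham and 301 to 841 CPM in NT + Stroke, and to 332 CPM in mouse 6 of HT + Sham against 101 to 164 CPM in its group. In HT + Stroke they were 130.2 and 139.8 CPM in mice 1 and 6 and 935 CPM in mouse 3. None of these markers was at 0 in a whole group, and their part in the MMP levels was not tested. In the same comparison 6 of 8 microglial, 4 of 6 border macrophage, 5 of 6 astrocyte, 3 of 6 oligodendrocyte, 2 of 6 endothelial, 2 of 5 pericyte and smooth muscle and 4 of 6 olfactory bulb markers rose. Of 8 cortical neuron markers 5 fell and 1 rose. Fewer markers could be tested for neutrophils (2, both higher), mast cells (2, of which 1 was higher), T cells (3, with 1 higher and 1 lower) and choroid plexus (3, of which 1 was higher). None of the 6 striatal or 4 blood markers tested passed. In HT + Stroke vs HT + Sham 4 of 6 oligodendrocyte markers rose and no marker of another list passed. No marker passed in HT + Sham vs NT + Sham or in HT + Stroke vs NT + Stroke.

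**Figure D5:**
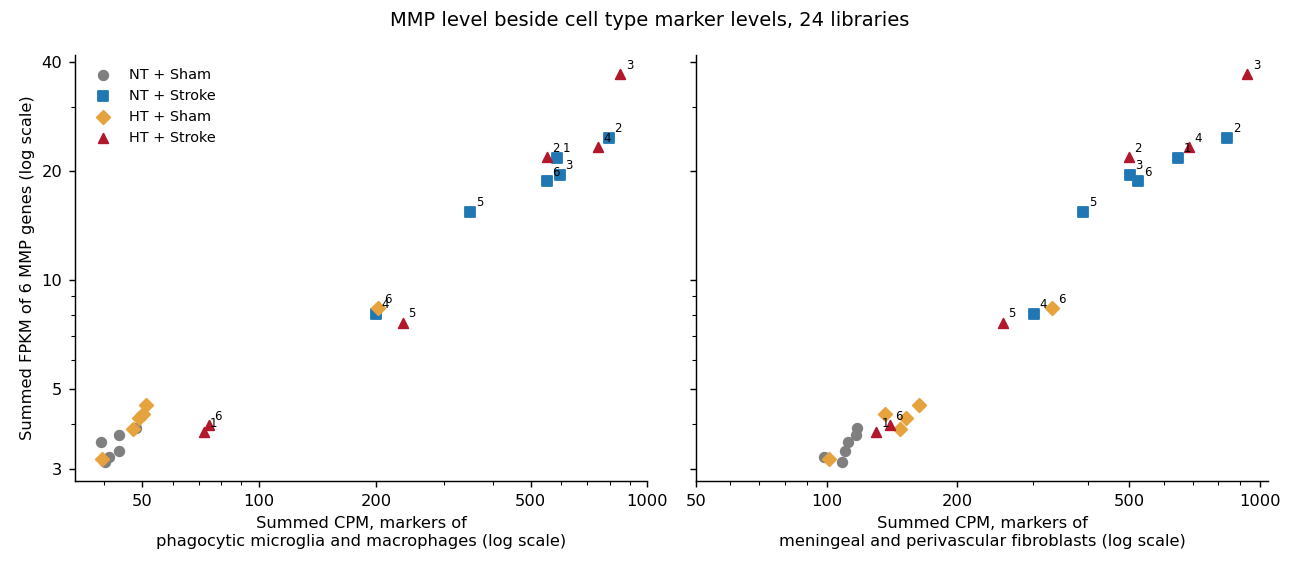
The summed FPKM of the 6 MMP genes (vertical, log scale) is plotted against the summed CPM of 8 phagocytic microglia and macrophage markers (left) and 7 fibroblast markers (right, both log scale) in 24 libraries. Points are marked by group, and numbers give the library where the MMP sum was above the sham cluster and in HT + Stroke. Mouse 6 of HT + Sham (8.33 FPKM, 203 CPM) lies with mouse 4 of NT + Stroke (8.06 FPKM, 200.1 CPM), and mice 1 and 6 of HT + Stroke lie near the sham libraries.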

How the data were processed

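Tissue was collected and sequenced by the authors, who mapped reads to the Ensembl mouse genome. The aligner, build and strand setting are not given in the sources used here. The submitters' processing notes name featureCounts 1.5.0-p3 and DESeq2 1.20.0. The authors deposited 4 tables of whole-number counts per gene, not normalized, beside FPKM, which they divided by gene length and library size. Columns of the authors' own fold changes and *P* values and 56 other columns were not used. Tables were joined by gene identifier. Positions match GENCODE M21 on GRCm38 for all 10 genes.

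Counts were tested in R 4.3.3 with edgeR 4.0.16: filterByExpr (minimum count 10, minimum total 15), TMM scaling, a robust two-sided quasi-likelihood test on the groups compared (all 24 libraries for the interaction), and Benjamini-Hochberg adjustment over all genes tested at 0.05. The scripts were tested on simulated data. CPM use TMM library sizes over all 24 libraries. Intervals are 95%. Correlations used 100000 resamples, or all permutations within a group. For genes below the filter, values come from fitting every gene with 1 count or more. Genes and lists (4 lists of related genes, 16 of cell type markers) were chosen with earlier results of these data known. Besides the 10 genes and the synapsins, up to 4 genes of a list with the largest changes in NT + Stroke vs NT + Sham, any that passed elsewhere, and the 3 genes nearest to each of the 10 (mean of at least 1 CPM) are named. Alternatives were DESeq2 1.42.0, library size only, upper-quartile scaling, no filter, limma 3.58.1 on log2(FPKM + 1) and log2(FPKM + 0.1) (mean FPKM of at least 0.1), 1 fit of all groups, and each library left out.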

Additional observations from a re-analysis of the deposited data

Results flagged for a closer look

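In 40 sets of 6 mice (10 genes in 4 groups), the highest mouse lay apart from the others by Dixon's criterion in 8. The rate by chance of about 1 in 20 assumes independent, normally distributed values. Levels near 0 and several genes of the same library do not meet this, so 8 of 40 is not read as an excess. In mouse 6 of HT + Sham, *Mmp12* was 3.31 CPM (others 0 to 0.123), *Mmp3* 1.65 CPM (others 0 to 0.237) and *Timp1* 4.56 CPM (others 0.242 to 0.830). *Mmp9* was 3.59 CPM in mouse 5 of NT + Stroke (others 1.64 to 2.35) and 6.44 CPM in mouse 3 of HT + Stroke (others 1.25 to 3.06). *Mmp19* was 3.76 CPM in mouse 1 of NT + Stroke (others 1.81 to 2.44). *Mmp3* was 0.218 CPM in mouse 2 of NT + Sham, which is 4 counts, and *Timp3* was 17.7 CPM in mouse 4 of NT + Sham, where the lowest was 5.66 CPM.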

How the results depend on the processing

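In NT + Stroke vs NT + Sham the direction of all 10 genes held under every alternative and with each library left out, and the call of every gene but *Mmp9* held as well. Besides the left-out libraries given above, *Mmp9* lost its call in 1 fit of all groups (log2 fold change 0.77) and with limma on log2(FPKM + 1) (0.26, adjusted *P* = 0.0501). Its adjusted *P* was otherwise 0.0162 to 0.0443. In HT + Stroke vs HT + Sham, 2 of the 10 genes passed with DESeq2 and 2 in 1 fit of all groups, which *Mmp3* entered only through NT + Stroke. Over all genes that comparison called 108, against 907 with DESeq2, 1125 in 1 fit of all groups, 179 without the count filter, 67 with library size only, and 57 and 20 with limma on log2(FPKM + 0.1) and log2(FPKM + 1). With 1 library left out it called 9 (without mouse 3 of HT + Sham) to 533 (without mouse 1 of HT + Stroke). The cause was not tested.

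HT + Sham vs NT + Sham called 1 gene with limma on log2(FPKM + 0.1), and the interaction 22 with DESeq2. None of these was among the 10. Some small log2 fold changes that never passed changed sign. In the interaction, *Timp4* was −0.054 with library size only and *Mmp9* −0.065 with limma on log2(FPKM + 0.1). With 1 library left out, the interaction ranged from −0.39 to 0.28 for *Mmp9* and from −0.033 to 0.060 for *Timp4*. In HT + Stroke vs NT + Stroke the ranges were −0.68 to 0.12 for *Mmp3*, −0.18 to 0.50 for *Mmp9*, −0.32 to 0.10 for *Mmp14*, −0.51 to 0.042 for *Timp1* and −0.091 to 0.013 for *Timp4*. In HT + Sham vs NT + Sham, *Timp4* was −0.085 to 0.0066. The median ratio of MMP to TIMP FPKM was 0.149 higher in NT + Stroke than in NT + Sham with 6 MMP genes, and the difference was −0.231 with 13 other MMP genes added, chosen after seeing the data. On log2(FPKM + 0.1), 21 of 45 pairs correlated over the stroke libraries. No paired analysis was possible because the labels give no replicate numbers, and the numbers in the tables only name libraries. Depth limits *Mmp3*, *Mmp12* and *Timp1* in sham mice, where most libraries had under 15 counts.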

Other observations

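*Mmp3* and *Mmp12* belong to a cluster of 10 MMP genes within 427.1 kb of chromosome 9. Genes of this cluster that fell below the count filter were looked at after their values were seen, by fitting every gene with 1 count or more. Their adjusted *P* values rest on that choice and on very few sham counts, and are given as a description only. *Mmp13*, a collagenase, had 302 counts over the NT + Stroke mice and 11 over the NT + Sham mice (log2 fold change 4.60, SE 0.761, edgeR adjusted *P* = 0.00158). It had 12 to 95 counts in each NT + Stroke mouse and 0 to 5 in each NT + Sham mouse. *Mmp8*, the neutrophil collagenase, had 54 against 1 counts (edgeR adjusted *P* = 3.09e-05), and *Mmp27* 30 against 0 (edgeR adjusted *P* = 0.000567). In HT + Stroke, *Mmp13* ranged from 0 to 138 counts, *Mmp8* from 0 to 12 and *Mmp27* from 0 to 26, and in HT + Sham they had at most 5, 1 and 1. *Mmp20*, the enamel MMP of the same cluster, was at 0 in every library except 2 of NT + Sham, which had at most 2 counts.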
